A study of Mus musculus with 6 samples.

Results

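The histone and DNA methylation enzymes are 34 genes from families that write or erase methyl groups on histone lysines or on cytosine in DNA. They were taken by symbol from the transcript table, which holds 54309 genes, and the transcript values of each gene were summed. RNA came from lumbar dorsal root ganglia (DRG, which house the cell bodies of sensory neurons), levels 4 to 6, and the mice were C57bl/6 males of 8 to 10 weeks. In the control group, AAV-GFP, an adeno-associated virus carrying green fluorescent protein was injected on both sides into the sciatic nerve. In the leptin group, AAV-Leptin-GFP, the virus carried leptin, the satiety hormone made by fat tissue, as well as GFP. Both groups then received the same spinal injury, a cut of the dorsal columns that severs the central branches of sensory axons, 4 weeks after the virus, and tissue was taken 24 hours after the cut. There was no uninjured or virus-free group, so every comparison is leptin with GFP against GFP alone in injured mice. Cells were dissociated and neurons were enriched on an albumin gradient before RNA was isolated. Each group has 3 libraries. The promoter that drives the transgenes is not stated in the labels. The labels do not say whether a library is 1 animal or a pool, so p-values measure only the spread between these libraries, which may in part be technical.

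Methylation marks sit at the crossing of metabolism and transcription. Methyltransferases take their methyl group from S-adenosylmethionine. Histone demethylases of the KDM1 family remove it with a flavin cofactor, whereas those with a JmjC domain, like the TET enzymes that oxidise methylcytosine, need iron, oxygen and 2-oxoglutarate. Methylation of lysine 4 of histone H3 (H3K4) marks active promoters and enhancers, that of H3K36 and H3K79 marks transcribed gene bodies, and that of H3K9 and H3K27 marks silent chromatin. In DRG neurons several of these enzymes have been studied for their part in the gene programme that follows axon injury.

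Values are TPM, a length-corrected share of each library on a scale that is the same for all libraries, so levels can be compared between genes. The values keep no read depth. All 34 genes were detected above the filter of a mean of 1 TPM over the 6 libraries. The lowest mean was that of Tet1, at 1.40 TPM, and the highest that of Setd7, at 57.6 TPM. Tet1 is the member just inside the filter, and no member lay below it. Differences are log2 fold changes, leptin group minus control group, on log2(TPM + 1), a scale on which the change of a low gene comes out too small. A gene counted as called at a Benjamini-Hochberg adjusted p under 0.05 in limma, adjusted over all 15108 genes tested.

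No member was called, either higher or lower, against a background of 1.54% of all tested genes called higher and 0.0662% called lower. At an unadjusted p under 0.05 in limma, 13 members were higher and 0 lower, where the background was 11.3% higher and 8.19% lower. The 13 were the writers Kmt2b, Setd1b, Ehmt2, Nsd1 and Dot1l, the erasers Kdm1b, Kdm2a, Kdm3a, Kdm5b and Kdm6b, the DNA methyltransferase Dnmt3a, and the dioxygenases Tet2 and Tet3. In 15 members all 3 leptin libraries lay above all 3 control libraries (background 13.3%), in 0 members the reverse held (background 11.9%), and in 19 the groups overlapped. Of the 34 differences, 32 were above 0 (background 49.9%), with a median of 0.16 and a range from -0.19 to 0.96. Only Ezh2 and Kdm2b had a log2 fold change below 0. The median over all tested genes was 0.00 (-0.000164). With quantile normalization, 26 members were above 0, as were 6032 of the 15108 genes tested.

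The members' TPM summed to 507, 479 and 479 in the control libraries and to 566, 581 and 527 in the leptin libraries. The leptin libraries were all higher, with group means of 489 ± 16.1 and 558 ± 27.6 TPM (SD, n = 3 each), a ratio of 1.14. When all tested genes were split by transcript length into 4 bins of equal size, their median log2 fold change was -0.06 in the shortest bin, then -0.02 and 0.01, and 0.03 in the longest. Of the members, 27 were in the longest bin, with a median of 0.18, 6 in the next and 1 in the shortest. The part of transcript length in the members' differences was not tested separately from GC content. After a correction for both, added after the data were seen, 28 members were above 0, with a median of 0.09. Of the 15017 genes tested with that correction, 5581 were above 0, and their median was -0.06.

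**Figure D1:**
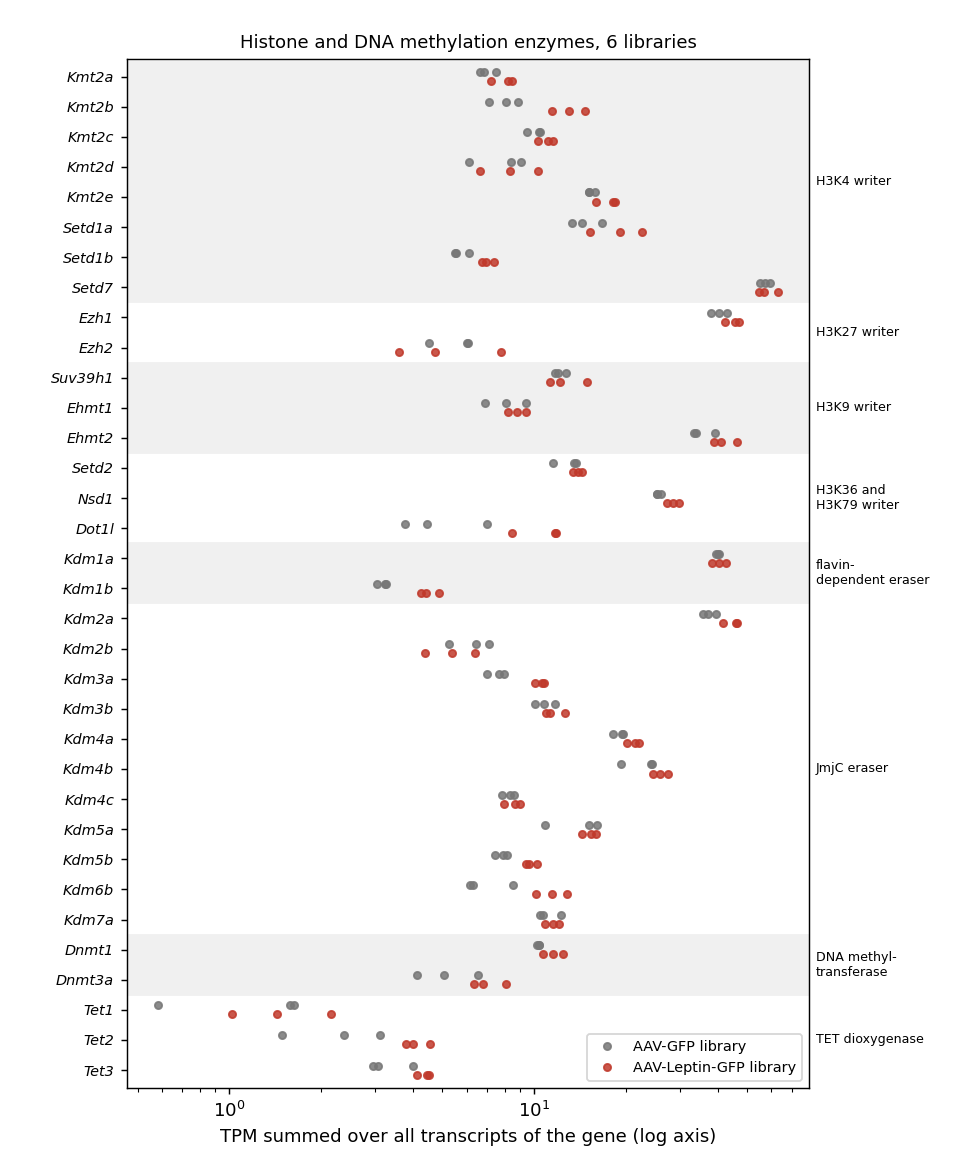
TPM of each of the 34 enzymes (log axis, summed over the transcripts of the gene) in the 3 AAV-GFP libraries (grey) and the 3 AAV-Leptin-GFP libraries (red), grouped by role. In 15 genes, among them Kmt2b, Dot1l, Kdm3a and Kdm6b, every red point lies to the right of every grey one, and in no gene does the reverse hold.

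**Figure D2:**
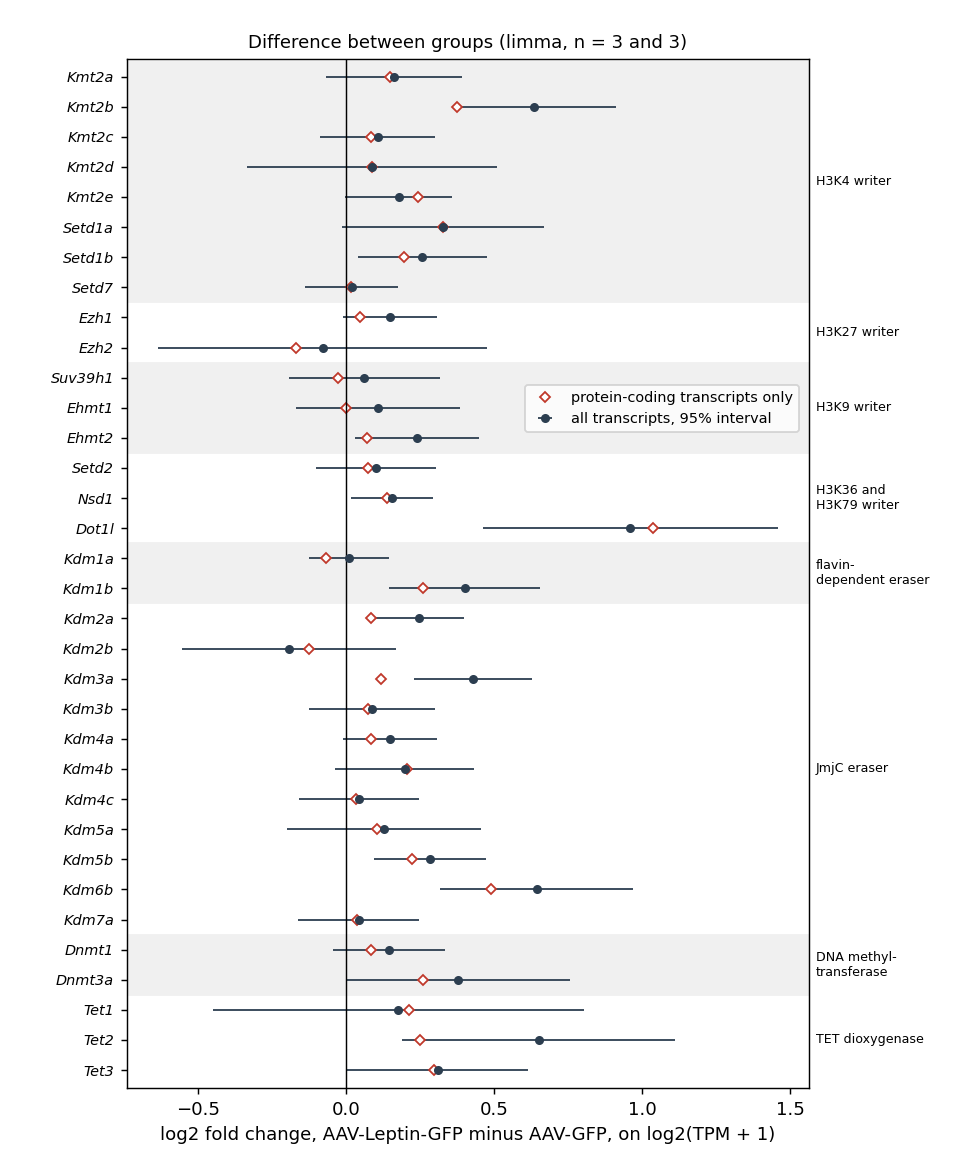
Log2 fold change of each enzyme (leptin minus GFP, on log2(TPM + 1)), with the 95% interval from limma for all transcripts (dark points and lines) and the value from protein-coding transcripts only (open red diamonds). The diamonds lie well to the left of the points for Kmt2b, Ehmt2, Kdm2a, Kdm3a and Tet2, and slightly to the right for Dot1l.

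The table gives values for single transcripts, and the members have 297 of them, of which 232 were above 0 in at least 1 library and 78 had a mean of at least 1 TPM. Transcripts were sorted by their class in the GENCODE M21 annotation of GRCm38. Protein-coding transcripts are annotated with a reading frame, retained-intron transcripts keep intron sequence, nonsense-mediated decay transcripts carry an early stop, and processed transcripts are other forms without an annotated reading frame. No member transcript was called, against 0.107% called higher and 0.0238% called lower over the 33615 transcripts tested. At an unadjusted p under 0.05 in limma, 10 member transcripts were higher and 0 lower (background 12.3% and 6.01%).

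The difference between the groups did not fall on all classes alike. Retained-intron transcripts held 3.32%, 3.26% and 2.76% of the members' TPM in the control libraries and 6.21%, 6.23% and 5.32% in the leptin libraries. The group means were 3.11% ± 0.309 and 5.92% ± 0.519 (SD, n = 3 each), and the groups did not overlap. Over all genes of the table this share was 2.29% ± 0.200 and 3.53% ± 0.260, so it was also higher with leptin outside the enzymes. The members' share divided by that of all genes was 1.33, 1.55 and 1.22 in the control libraries and 1.73, 1.66 and 1.64 in the leptin libraries. Protein-coding transcripts held 91.7% ± 0.281 of the members' TPM in the control group and 87.4% ± 0.504 in the leptin group. Over all genes that share was also lower with leptin without overlap, at 87.8% ± 0.561 and 85.7% ± 0.352. Processed transcripts held means of 2.48% and 3.48% of the members' TPM (control and leptin), against 2.92% and 3.05% over all genes. Nonsense-mediated decay transcripts held 2.72% and 3.24% of the members' TPM. Over all genes they held 1.77% and 1.78%, with overlap. Of the 69.4 TPM by which the members' mean total was higher with leptin, 56.9% lay on protein-coding transcripts, 25.8% on retained-intron transcripts, 10.4% on processed transcripts and 6.95% on nonsense-mediated decay transcripts.

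**Figure D3:**
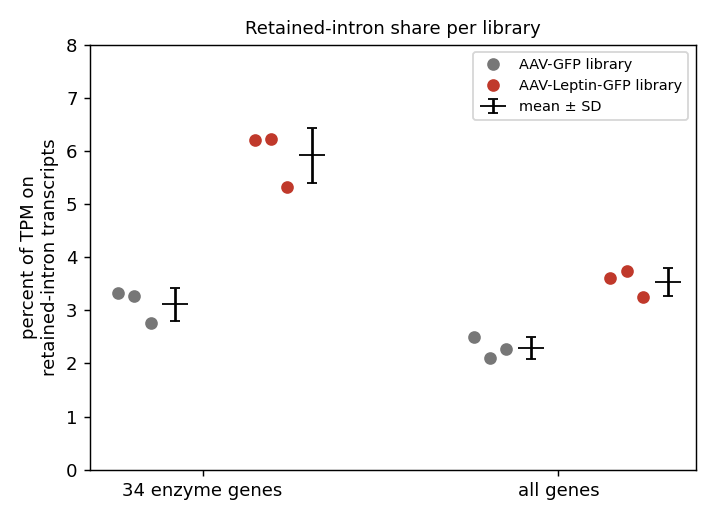
Percent of TPM on retained-intron transcripts in each library, for the 34 enzyme genes together and for all genes, with mean and SD (n = 3 libraries per group). The leptin libraries (red) lie above the GFP libraries (grey) in both sets, at 5.32% to 6.23% against 2.76% to 3.32% for the enzymes.

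Of the 34 members, 24 have a retained-intron transcript in the annotation and 10 have none. The retained-intron TPM of all 24 was higher in mean with leptin, as it was for 81.0% of the tested genes that have such a transcript. In 13 of the 24 the groups did not overlap and leptin was higher, and in 0 leptin was lower. Over the 7774 tested genes with such a transcript these shares were 41.3% and 0.785%. Most of these transcripts were low: 6 of the members' 77 had a mean of at least 1 TPM, with a median log2 fold change of 0.61, where the median over all 4245 tested retained-intron transcripts was 0.88. The members' 64 tested protein-coding transcripts had a median of 0.13, and 50 of them were above 0. All 22931 tested protein-coding transcripts had a median of -0.03. When only protein-coding transcripts were summed, 8 members were higher at an unadjusted p under 0.05 (background 6.45%), 30 were above 0 (background 39.1%), and the median was 0.10.

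The sequences below show where the intron-bearing transcripts of 4 members leave or meet the spliced form, from GENCODE M21 on GRCm38. Each is 48 bases long, 24 on each side of an exon edge that is used in the main protein-coding transcript and read through in the named transcript. Capitals mark the first or the last pair of bases of the intron, GT at a 5′ splice site and AG at a 3′ splice site. They are shown because sequence that runs unbroken across such an edge is present in the intron-bearing form and absent from the main spliced one. Kmt2b-205 runs into intron 30 of the 36 introns of Kmt2b-201 (chr7:30573936-30573983, minus strand). Ehmt2-210 and Ehmt2-205 both contain the whole of intron 23 of the 27 of Ehmt2-204, which is 307 bases long (chr17:34911032-34911079 and chr17:34911339-34911386, plus strand). Ezh1-205, classed as a processed transcript, includes the end of intron 18 of the 20 of Ezh1-203 (chr11:101193783-101193830, minus strand), and Suv39h1-204 runs into intron 3 of the 5 of Suv39h1-202 (chrX:8070564-8070611, minus strand).
Kmt2b, 5′ splice site of intron 30: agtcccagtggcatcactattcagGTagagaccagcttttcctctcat
Ehmt2, 5′ splice site of intron 23: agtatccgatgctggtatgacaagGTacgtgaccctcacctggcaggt
Ehmt2, 3′ splice site of intron 23: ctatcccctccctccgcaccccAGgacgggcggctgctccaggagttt
Ezh1, 3′ splice site of intron 18: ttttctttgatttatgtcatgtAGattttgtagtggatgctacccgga
Suv39h1, 5′ splice site of intron 3: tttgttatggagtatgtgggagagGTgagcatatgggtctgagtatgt

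In 9 of the 32 members with a higher mean TPM in the leptin group, the part of the difference outside protein-coding transcripts was larger than the part on them. These were Kmt2b, Ezh1, Suv39h1, Ehmt1, Ehmt2, Kdm1a, Kdm2a, Kdm3a and Tet2. In the other 23, among them Dot1l, Kdm6b and Nsd1, the larger part lay on protein-coding transcripts. In Setd1a and Kmt2d no transcript outside that class was above 0 TPM, so their differences could only lie on protein-coding transcripts. This split was not made over all tested genes, so the counts of 9 and 23 have no background to be read against.

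**Figure D4:**
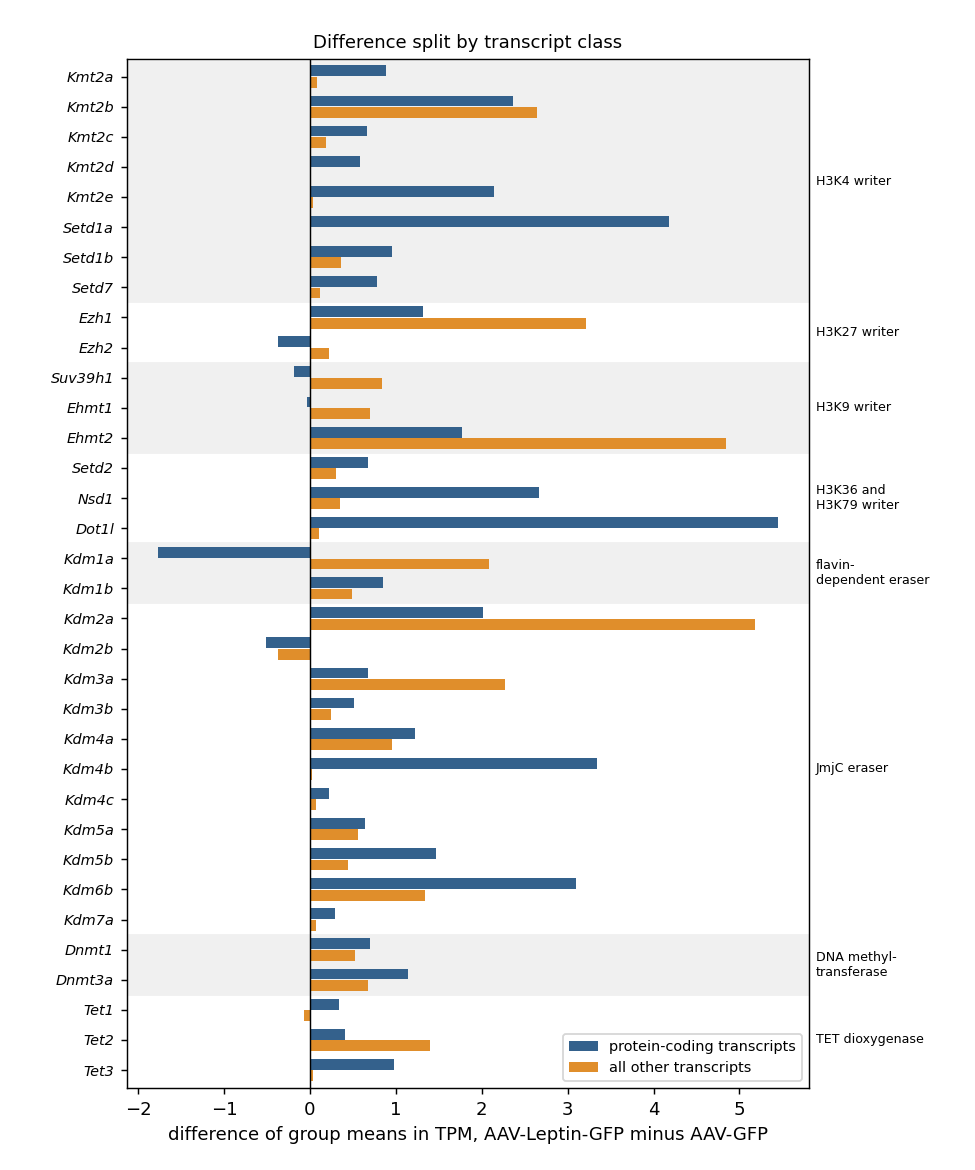
Difference of group means in TPM (leptin minus GFP) for each enzyme, split into protein-coding transcripts (blue) and all other transcripts (orange). The orange bar is the longer for Ehmt2, Kdm2a, Ezh1 and Kdm3a, whereas nearly all of the difference of Dot1l is blue. Setd1a and Kmt2d, with no other transcript above 0 TPM, have a blue bar alone. Kdm1a has a blue bar below 0 and an orange bar above 0.

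Among the 8 enzymes assigned to H3K4, all 8 had differences above 0 (not so for Kmt2d with quantile normalization or for Kmt2d and Setd7 with the length and GC correction), with a median of 0.17. Of these, 2 were higher at an unadjusted p under 0.05 (11.3% of all tested genes), and in 3 leptin was higher without overlap (13.3% of all tested genes). Kmt2b (chr7:30568858-30588726, minus strand), the catalytic subunit of an MLL-type COMPASS complex, had the smallest p of all 34 members. Its level was 8.86, 8.09 and 7.09 TPM in the control libraries and 14.7, 13 and 11.4 TPM in the leptin libraries. Every leptin library was above every control library, with means of 8.01 ± 0.888 and 13 ± 1.64 TPM (SD, n = 3 each). The log2 fold change was 0.64 (SE 0.12, 95% interval 0.36 to 0.91, limma unadjusted p = 0.000881, adjusted p = 0.0517). It passed the threshold in 5 of 16 alternative analyses, with adjusted p from 0.0289 to 0.199.

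Of the Kmt2b difference, 47.1% lay on protein-coding transcripts, and their sum alone gave a log2 fold change of 0.38. The main coding form, Kmt2b-201, was at 5.78, 5.20 and 4.24 TPM in the controls and 7.22, 7.27 and 5.96 TPM with leptin. The retained-intron transcripts of Kmt2b together had 1.35, 1.19 and 0.761 TPM in the controls and 5.28, 2.77 and 3.0 TPM with leptin, a share of the gene of 13.7% and 28.3%. One of them, Kmt2b-205, the form that runs into intron 30, had 1.14, 0.175 and 0.556 TPM against 2.56, 2.0 and 1.48 TPM with leptin, a log2 fold change of 0.92 with a limma adjusted p of 0.181. The sums of the coding and of the retained-intron forms of Kmt2b were therefore both higher in mean in the leptin libraries. Neither the coding sum (limma adjusted p = 0.126) nor Kmt2b-205 was past the threshold, and the retained-intron sum was not tested.

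Setd1b, a SET1-type H3K4 methyltransferase, was at 6.11, 5.54 and 5.48 TPM in the controls and 6.95, 6.72 and 7.38 TPM with leptin. Those groups did not overlap, but the difference of 0.26 (SE 0.09) had a limma adjusted p of 0.190. Its coding form Setd1b-204 did not overlap either, with 5.68, 5.37 and 5.21 TPM against 6.19, 6.03 and 6.18 TPM. Kmt2e, an MLL5 protein with a SET domain and a PHD finger, was at 15.1, 15.1 and 15.8 TPM against 18.2, 18.4 and 15.9 TPM, a difference of 0.18 (SE 0.08, limma adjusted p = 0.264). Its leptin replicate 3 lay just above the highest control. Setd1a, the paralog of Setd1b, overlapped between the groups, at means of 14.8 ± 1.71 and 19 ± 3.65 TPM (SD, n = 3 each), a difference of 0.33 and a limma adjusted p of 0.272. The remaining H3K4 enzymes differed by 0.02 to 0.16. Setd7, the monomethyltransferase with the highest level of any member, was at 57.2 ± 2.16 TPM in the control group and 58.1 ± 4.53 TPM in the leptin group (SD, n = 3 each), and the 95% interval of its log2 fold change ran from -0.14 to 0.18.

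The alternative catalytic subunits of Polycomb repressive complex 2, which methylates H3K27, stood at different levels. Ezh1, the form typical of cells that no longer divide, had 42.7, 38.0 and 40.4 TPM in the controls and 47.1, 45.5 and 42.1 TPM with leptin. Ezh2, the form typical of dividing cells, had 6.04, 4.51 and 6.01 TPM in the controls and 4.72, 7.78 and 3.61 TPM with leptin. Ezh1 was thus the more abundant of the pair in every library, and both overlapped between the groups. The difference of Ezh1 was 0.15 (SE 0.07, limma adjusted p = 0.279), and that of Ezh2 was -0.08 with an interval from -0.63 to 0.48.

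Only 29.0% of the Ezh1 difference lay on protein-coding transcripts, which alone gave 0.05. The short processed transcript Ezh1-205, of 726 bases, which includes the end of intron 18, had 0.498, 0 and 0.565 TPM in the controls and 2.14, 1.73 and 2.70 TPM with leptin. The difference was 1.25 with a limma adjusted p of 0.0829, and the groups did not overlap. The coding forms Ezh1-203 and Ezh1-202, of 4193 and 4207 bases, are nearly identical. Ezh1-203 had 11.3, 16.6 and 26.5 TPM in the controls and 30.4, 20.4 and 13.9 TPM with leptin, and Ezh1-202 had 21.6, 15.4 and 5.94 TPM and 5.41, 13.9 and 16.4 TPM. One was high where the other was low in both groups. Whether this came from how the estimate divides reads between similar transcripts was not tested, and the level of either form by itself is uncertain. In Ezh2 the retained-intron forms held 50.9% of the TPM in the controls and 58.4% with leptin, and the largest of them, Ezh2-213, overlapped between the groups.

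Of the 3 H3K9 methyltransferases, all 3 had differences above 0 (Suv39h1 was below 0 with quantile normalization), and Ehmt2 had an unadjusted p under 0.05. Ehmt2 (G9a; chr17:34898469-34914052, plus strand), which with Ehmt1 places the dimethyl mark on H3K9, was at 39.1, 34 and 33.4 TPM in the controls and 46.4, 41.1 and 38.9 TPM with leptin. The lowest leptin library lay just below the highest control. The difference was 0.24 (SE 0.09, limma unadjusted p = 0.0296, adjusted p = 0.202). Protein-coding transcripts of Ehmt2 were nearly level, at 33.4 ± 1.55 and 35.2 ± 2.14 TPM (SD, n = 3 each), and carried 26.8% of the difference. Its retained-intron transcripts had 3.72, 0.586 and 0.985 TPM in the controls and 7.97, 4.75 and 5.05 TPM with leptin, so that their share of the gene was 4.97% and 14.1%. The form with the whole of intron 23 and the start of intron 24, Ehmt2-210, had 0.438, 0.586 and 0.985 TPM against 2.16, 2.14 and 1.33 TPM, without overlap, a difference of 0.78 with a limma adjusted p of 0.175. Ehmt2-205, which keeps both introns whole, had 2.76, 0 and 0 TPM against 4.05, 1.35 and 2.92 TPM and overlapped.

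Ehmt1, the partner of Ehmt2, had 8.07, 6.89 and 9.36 TPM in the controls and 8.19, 9.38 and 8.75 TPM with leptin, a difference of 0.11 (limma adjusted p = 0.667). Suv39h1, which trimethylates H3K9 in constitutive heterochromatin, had 12.7, 11.7 and 12 TPM against 14.9, 12.2 and 11.2 TPM, a difference of 0.06 (limma adjusted p = 0.801). Both overlapped between the groups, and on protein-coding transcripts alone their differences were 0.00 and -0.03. Suv39h1-204, the form that runs into intron 3, had 1.87, 0.743 and 1.12 TPM in the controls and 2.63, 2.07 and 1.38 TPM with leptin, with overlap.

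Of the writers of marks in transcribed gene bodies, Dot1l (chr10:80755206-80795461, plus strand), the H3K79 methyltransferase, had the largest fold change of the members in the reported fit (without control replicate 2, Dot1l was at 0.80 and Tet2 at 0.82). Its level was 7.02, 3.76 and 4.45 TPM in the controls and 11.8, 11.7 and 8.48 TPM with leptin. Every leptin library was above every control, with means of 5.08 ± 1.72 and 10.6 ± 1.87 TPM (SD, n = 3 each). Control replicate 1 was the highest of its group. The log2 fold change was 0.96 (SE 0.21, 95% interval 0.46 to 1.46, limma unadjusted p = 0.00247, adjusted p = 0.0738), and it passed the threshold in 3 of 16 alternatives, with adjusted p from 0.0244 to 0.239. It passed without control replicate 1, where the log2 fold change was 1.18.

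Unlike the difference of Ehmt2, 98% of that of Dot1l lay on transcripts classed as protein-coding, whose sum gave a log2 fold change of 1.04. The full-length form Dot1l-201, of 6808 bases and 28 exons, had 4.19, 2.74 and 3.0 TPM in the controls and 6.63, 6.45 and 4.95 TPM with leptin (limma adjusted p = 0.113). The other form, Dot1l-203, has 1784 bases in 2 exons, and 1364 of those bases are intronic in Dot1l-201, although the annotation classes it as protein-coding. It had 1.79, 0.712 and 0.633 TPM in the controls and 3.93, 4.05 and 3.43 TPM with leptin, a difference of 1.27 with a limma adjusted p of 0.0734. So both the full-length and the mostly intronic form of Dot1l were higher without overlap in the leptin libraries.

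Nsd1, which dimethylates H3K36, was at 26.0, 25.3 and 25.2 TPM in the controls and 28.5, 29.8 and 27.3 TPM with leptin. The groups did not overlap, and the difference was small, 0.15 (SE 0.06, limma adjusted p = 0.212). The full-length form Nsd1-201, of 12784 bases, was at 14.9, 14.9 and 14.8 TPM against 15.3, 16 and 15.6 TPM. The short Nsd1-206, of 1001 bases, 488 of them intronic in Nsd1-201, overlapped at means of 9.67 and 10.0 TPM. More of the coding difference of Nsd1 lay on the short, low forms Nsd1-203, at means of 0.308 and 1.24 TPM, and Nsd1-208, at 0 in all controls and at 1.30, 0.923 and 0.512 TPM with leptin. Setd2, which places the trimethyl mark on H3K36, had 13.5, 13.7 and 11.5 TPM against 13.4, 14.4 and 13.9 TPM, with overlap and a limma adjusted p of 0.569.

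The flavin-dependent demethylases of H3K4 stood at different levels. Kdm1a (LSD1), which works in the CoREST repressor complex, had 40.2, 39.4 and 40.4 TPM in the controls and 38.2, 42.5 and 40.2 TPM with leptin. The groups overlapped, and the 95% interval of the log2 fold change was narrow, from -0.12 to 0.14 (the value was below 0 with quantile normalization and with the length and GC correction). Within Kdm1a, the protein-coding transcripts were at 39.3 ± 0.419 TPM in the controls and 37.5 ± 1.74 TPM with leptin, whereas the retained-intron transcripts had 1.02, 0.505 and 0.658 TPM against 2.55, 3.46 and 2.43 TPM, from 1.82% to 6.98% of the gene. Under a gene total that was near level, the means of the coding and the intron-bearing class differed in opposite directions. Kdm1b (LSD2; chr13:47043499-47085279, plus strand), its paralog, had 3.23, 3.26 and 3.04 TPM in the controls and 4.41, 4.88 and 4.26 TPM with leptin. The groups were tight and did not overlap, with means of 3.18 ± 0.120 and 4.52 ± 0.324 TPM (SD, n = 3 each). The difference was 0.40 (SE 0.11, 95% interval 0.15 to 0.66, limma unadjusted p = 0.00718, adjusted p = 0.109). The coding form Kdm1b-201 also had its groups apart, with 2.24, 2.18 and 2.52 TPM against 2.77, 3.40 and 2.84 TPM.

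Among the 11 JmjC demethylases, 10 differences were above 0 (Kdm3b, Kdm4c and Kdm7a were below 0 with quantile normalization, and Kdm3b with the length and GC correction), with a median of 0.15. Of these, 4 were higher at an unadjusted p under 0.05 (11.3% of all tested genes), and in 6 leptin was higher without overlap (13.3% of all tested genes). Kdm3a (chr6:71588972-71632990, minus strand), which removes methyl groups from H3K9, had 7.96, 6.99 and 7.65 TPM in the controls and 10.8, 10.0 and 10.6 TPM with leptin. All leptin libraries were above all controls, at 7.53 ± 0.494 and 10.5 ± 0.401 TPM (SD, n = 3 each). The difference was 0.43 (SE 0.08, 95% interval 0.23 to 0.63, limma unadjusted p = 0.00125, adjusted p = 0.0593). It passed the threshold in 3 of 16 alternatives, with adjusted p from 0.0396 to 0.519, the last on protein-coding transcripts alone. Its full-length form, Kdm3a-201, was level, with 5.65, 6.20 and 6.86 TPM in the controls and 5.85, 5.89 and 7.27 TPM with leptin (limma adjusted p = 0.967). The retained-intron transcripts of Kdm3a had 0.510, 0.0860 and 0.621 TPM against 1.53, 2.08 and 1.76 TPM, from 5.39% to 17.1% of the gene, and 23.1% of the difference lay on protein-coding transcripts.

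Kdm6b (JMJD3; chr11:69398508-69413675, minus strand), which removes the repressive H3K27 mark, had 8.53, 6.31 and 6.16 TPM in the controls and 11.4, 12.8 and 10.1 TPM with leptin. The groups did not overlap, at 7.0 ± 1.32 and 11.4 ± 1.3 TPM (SD, n = 3 each). The log2 fold change was 0.64 (SE 0.14, 95% interval 0.32 to 0.97, limma unadjusted p = 0.00218, adjusted p = 0.0714). It passed the threshold in 3 of 16 alternatives, with adjusted p from 0.0314 to 0.240, and 1 of these left out control replicate 1, the highest control. In contrast to Kdm3a, 69.8% of the Kdm6b difference lay on protein-coding transcripts. The coding form Kdm6b-201 had 8.14, 5.93 and 6.16 TPM in the controls and 9.93, 11 and 8.59 TPM with leptin (limma adjusted p = 0.158), and the processed transcript Kdm6b-202 had 0.381, 0.384 and 0 TPM against 1.5, 1.78 and 1.52 TPM.

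Kdm2a (chr19:4314419-4398285, minus strand), an H3K36 demethylase that binds unmethylated CpG islands, had 39.4, 35.7 and 37.2 TPM in the controls and 46.0, 46.1 and 41.8 TPM with leptin. The groups did not overlap, and the difference was 0.25 (SE 0.06, 95% interval 0.10 to 0.40, limma unadjusted p = 0.00615, adjusted p = 0.103). Its long coding form Kdm2a-202 was level, at means of 21.7 and 22.0 TPM. The nonsense-mediated decay form Kdm2a-213, of 2195 bases, had 5.30, 5.24 and 3.61 TPM in the controls and 8.83, 7.91 and 7.93 TPM with leptin, a difference of 0.70 with a limma adjusted p of 0.0829. A short form classed as coding, Kdm2a-212, of 1076 bases, had 7.41, 7.23 and 9.39 TPM against 10.3, 10.5 and 9.69 TPM (limma adjusted p = 0.241). Of the tested forms of Kdm2a, these 2 short ones did not overlap between the groups, whereas the long coding forms did.

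Kdm5b, an H3K4 demethylase named here after its values were seen, had means of 7.83 ± 0.337 and 9.75 ± 0.389 TPM (SD, n = 3 each) without overlap, a difference of 0.28 with a limma adjusted p of 0.118. The H3K9 and H3K36 demethylases Kdm4a and Kdm4b also did not overlap, with differences of 0.15 and 0.20 and limma adjusted p of 0.279 and 0.327. Kdm2b, the paralog of Kdm2a that recruits a Polycomb complex to CpG islands, was lower in mean with leptin, at 6.27 ± 0.926 and 5.38 ± 1.02 TPM (SD, n = 3 each), with overlap and a limma adjusted p of 0.542. The other 4 JmjC members, Kdm3b, Kdm4c, Kdm5a and Kdm7a, overlapped, with differences from 0.04 to 0.13.

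**Figure D5:**
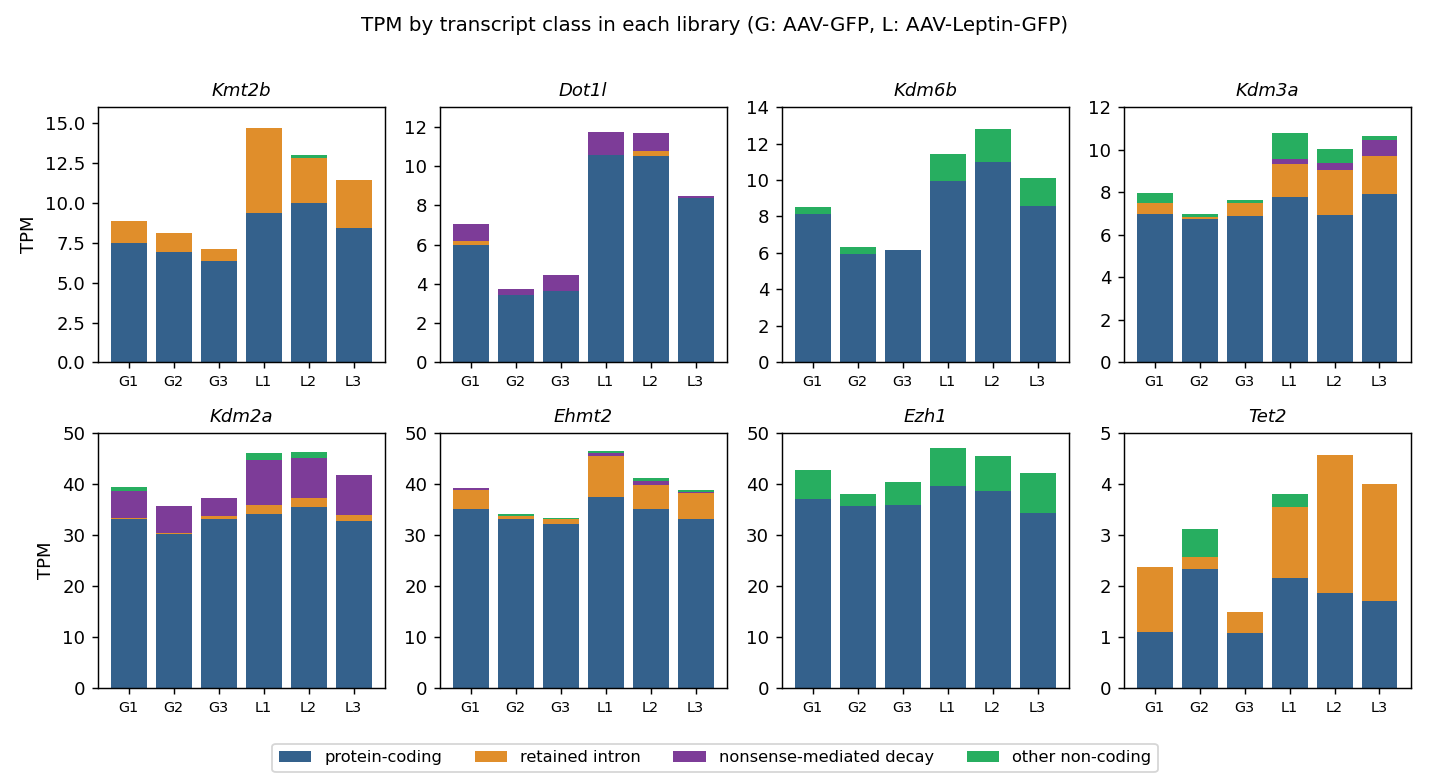
TPM of 8 enzymes in each library, stacked by transcript class (linear axes that start at 0 and differ between genes; G1 to G3 are the AAV-GFP and L1 to L3 the AAV-Leptin-GFP libraries). The blue protein-coding part is near level in Kdm3a, Kdm2a, Ehmt2 and Ezh1 and higher in the leptin libraries in Dot1l, Kdm6b and Kmt2b, and the orange retained-intron part of Kdm3a, Ehmt2 and Kmt2b is higher in all 3 leptin libraries.

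Of the DNA methyltransferases, Dnmt1, which copies methylation to new DNA strands, had 10.3, 10.2 and 10.4 TPM in the controls and 11.5, 12.4 and 10.7 TPM with leptin. The controls were close together and below every leptin library, yet the difference of 0.15 had a limma adjusted p of 0.372. Dnmt3a, which sets methylation anew, had 5.07, 6.55 and 4.14 TPM in the controls and 6.78, 6.37 and 8.05 TPM with leptin, with overlap, a difference of 0.38 (SE 0.16) and a limma adjusted p of 0.252. Its longest coding form, Dnmt3a-201, of 9685 bases, was at 3.16, 2.6 and 2.76 TPM against 4.23, 4.27 and 4.73 TPM, without overlap (limma adjusted p = 0.133), whereas Dnmt3a-218, of 8737 bases, overlapped.

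The TET dioxygenases were the least abundant group, with means over the 6 libraries from 1.40 to 3.85 TPM. Tet2 (chr3:133463679-133545139, minus strand) had 2.38, 3.11 and 1.48 TPM in the controls and 3.81, 4.56 and 4.00 TPM with leptin. Its groups did not overlap, with means of 2.32 ± 0.813 and 4.12 ± 0.389 TPM (SD, n = 3 each) and a difference of 0.65 (SE 0.20, 95% interval 0.19 to 1.11, limma unadjusted p = 0.0121, adjusted p = 0.136). Only 22.5% of it lay on protein-coding transcripts, and the retained-intron share of Tet2 was 27.8% in the controls and 51.8% with leptin. All coding forms of Tet2 together had 1.09, 2.33 and 1.08 TPM in the controls and 2.16, 1.85 and 1.69 TPM with leptin, with overlap. The full-length Tet2-201 had 0, 1.30 and 1.08 TPM against 2.08, 1.85 and 1.69 TPM, while Tet2-204 and Tet2-205 were lower in mean with leptin. Tet3, the TET enzyme with the higher control level of 3.35 ± 0.580 TPM, had 4.01, 3.07 and 2.96 TPM in the controls and 4.51, 4.43 and 4.13 TPM with leptin, without overlap. Its difference was 0.31 (SE 0.13, limma adjusted p = 0.252), and it lay on the coding form Tet3-202, at 3.73, 2.91 and 2.88 TPM against 4.43, 4.24 and 3.96 TPM. Tet1 had 1.62, 1.57 and 0.582 TPM against 1.02, 1.43 and 2.15 TPM, with overlap and a limma adjusted p of 0.770.

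For the 21 members with an unadjusted p of at least 0.05, log2 fold changes ran from -0.19 to 0.33, and their 95% intervals lay within -0.63 and 0.80. These intervals leave room for differences of the size seen in Kdm3a for the more variable members, such as Ezh2, Tet1 and Kmt2d.

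Partners and relatives of the members were followed in 8 lists, 96 genes in all, of which 92 passed the filter. Of these, 1 was called higher (background 1.54%) and 0 lower, and 12 were higher and 6 lower at an unadjusted p under 0.05 in limma, shares near the 11.3% and 8.19% of all tested genes. The one called was Kmt5c, which trimethylates H4K20 in heterochromatin, with 13.9, 8.35 and 8.91 TPM in the controls and 26.3, 25.2 and 18.6 TPM with leptin. Its groups did not overlap, and the log2 fold change was 1.11 (SE 0.20, limma adjusted p = 0.0484). Kmt5c is in the list of the other lysine methyltransferases, of 22 tested genes, whose median was 0.05.

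The DNA methylation partners and readers had a median of 0.12 over 11 tested genes, 4 of them higher at an unadjusted p under 0.05 (11.3% of all tested genes). The smallest p there was that of Gadd45b, a stress-induced protein linked to DNA demethylation, with 16.2, 14.6 and 13.4 TPM in the controls and 21.5, 19.6 and 20.3 TPM with leptin (0.45, limma adjusted p = 0.0542). Among the CoREST partners of Kdm1a, Rcor2 was at 10.5 ± 1.64 and 15.5 ± 1.70 TPM (SD, n = 3 each), with a limma adjusted p of 0.0889, and the list's median was 0.11. In cofactor metabolism, Mat2a, the enzyme that makes S-adenosylmethionine, had 116, 111 and 111 TPM in the controls and 141, 159 and 132 TPM with leptin, a difference of 0.35 with a limma adjusted p of 0.0608. Idh1 and Idh3a, isocitrate dehydrogenases that make 2-oxoglutarate, were lower in mean without overlap, at means of 148 and 130 TPM and of 168 and 153 TPM (limma adjusted p of 0.0927 and 0.142, named after their values were seen). Idh2, the other isocitrate dehydrogenase of the list, was higher in mean with leptin, at 19.8 and 22.3 TPM, with overlap (limma adjusted p = 0.471). That list had 2 genes higher and 2 lower at an unadjusted p under 0.05, and its median was -0.01.

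The other lists had medians near or below 0. The arginine methyltransferases, 9 tested, had a median of -0.06, and Prmt1, the main enzyme of that family, was lower in mean with leptin, at 116 ± 4.82 and 101 ± 1.70 TPM (SD, n = 3 each, limma adjusted p = 0.0895). The PRC2 partners of Ezh1 and Ezh2 had a median of 0.03 over 8 tested genes, and their smallest p was that of the histone-binding subunit Rbbp7, with a difference of -0.14 and a limma adjusted p of 0.145. The COMPASS partners of the H3K4 writers had a median of 0.00 over 13 genes, led by the CpG-binding subunit Cxxc1 at 0.43 with a limma adjusted p of 0.196. The other demethylases and JmjC proteins had a median of 0.01 over 12 genes, led by Jmjd1c, a relative of Kdm3a, at 0.33 with a limma adjusted p of 0.175.

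Lep, the transgene's gene, was at 0 TPM in all 3 controls and at 0.751, 0.547 and 3.56 TPM in the leptin libraries. Neuronal markers, 8 of 8 detected, summed to between 9794 and 9886 TPM in the controls and between 9129 and 9393 TPM with leptin. That lower sum lay mostly on Uchl1, at means of 4926 and 4644 TPM, and Tubb3, at 3470 and 3228 TPM. Isl1 was higher without overlap, at means of 81.8 and 90.1 TPM, and the other neuronal markers overlapped. Schwann cell markers (6 of 6) summed to between 951 and 983 TPM in the controls and between 827 and 908 TPM with leptin. Satellite glia markers (6 of 6) summed to between 1485 and 1874 and between 1368 and 1510 TPM, but 3 of the 6 were higher in mean with leptin, and the lower sum lay mostly on Fabp7, at means of 871 and 600 TPM. Macrophage, endothelial and fibroblast markers overlapped between the groups at sums of at most 80.6 TPM. Of the 4 markers of dividing cells, which summed to between 2.09 and 2.71 TPM in the controls and between 2.95 and 5.59 TPM with leptin, Cdk1 passed the filter, at means of 0.708 and 2.18 TPM without overlap, and Mki67, Top2a and Ccnb1 lay below the filter and overlapped. Red blood cell genes summed to between 157 and 237 TPM in the controls and between 220 and 1617 TPM with leptin, where replicate 3 stood apart. Without that library, 0 members were called, 14 were higher at an unadjusted p under 0.05 (1832 of the 15108 genes tested), 33 were above 0, and the median was 0.19. Over all 15108 genes in that fit, 15 were called higher and 0 lower, 8112 were above 0, and the median was 0.02. No marker list was at 0 throughout, none of their genes was called, and the part of cell composition in the members' differences was not tested. In such bulk samples, fewer cells of a type and less RNA per cell cannot be told apart.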

How the data were processed

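The authors deposited TPM values, 1 per Ensembl transcript and library, for 3 AAV-GFP and 3 AAV-Leptin-GFP libraries of polyadenylated RNA. The submitters' processing notes name Salmon 1.6.0, DESeq2 1.34.0, Trim Galore 0.6.6 and FastQC 0.11.9, with the builds GRCm38 and mm10. TPM keep no read depth, so no counting error can be given, and each library sums to 1000000, so that a gain of some transcripts lowers the others. Salmon estimates how reads that fit several transcripts are divided, so single transcripts are less certain than gene sums. Which annotation release they used is not stated. GENCODE M21 (GRCm38) holds 97.4% of the 140789 identifiers, 37 of them with the same version. All 297 member transcripts matched by identifier, and classes, coordinates and sequences come from M21.

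TPM were summed by gene identifier. Those with a mean of 1 TPM or more over the 6 libraries went into a limma 3.58.1 fit (R 4.3.3) of log2(TPM + 1) (mean-variance trend, two-sided, no covariates), with Benjamini-Hochberg adjustment over all genes tested. Transcripts were tested the same way. The scripts were tested on simulated data. The fits read their input through data.table (version 1.17.8), and figures used matplotlib 3.10.9 in Python 3.11.15.

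The members and lists were chosen with earlier results of these data known, so no p is given for scores over the members, the retained-intron share included (the smallest that 3 against 3 libraries allow is 0.1). Values per library were given to the 3 members with the smallest unadjusted p of each role. Of the lists, the genes called or otherwise the 1 with the smallest p of each list were named, with others where the text says so. Of the single transcripts, only some of those of at least 1 TPM are printed, with a few lower ones. The printed forms therefore need not account for the whole difference of a gene.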

Additional observations from a re-analysis of the deposited data

How the results depend on the processing

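Depth is unknown, 3 libraries a group limit the precision, and class labels come from another annotation release than the values. The number of members called higher, 0 as reported, was 1 with a filter of at least 5 TPM, 1 with a pseudocount of 0.1 TPM, 2 with TPM rescaled without mitochondrially encoded genes, 4 with limma arrayWeights and 4 with the length and GC correction, which was added after the data were seen. Leaving out 1 library gave 0 to 2 members (2 without AAV-GFP replicate 1) and 0 to 1 member transcripts (1 of 78 without AAV-GFP replicate 1). With AAV-GFP replicate 1 left out, 1196 of all 33615 transcripts tested were called higher and 82 lower. No filter, quantile normalization, limma without trend and protein-coding transcripts only gave 0 members called higher. No setting called a member lower. The difference in retained-intron share, 2.81 percentage points, was 2.63 to 3.1 when 1 library was left out.

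Over all tested genes, calls were 233 higher and 10 lower of 15108 as reported. They were 270 and 27 of 11332 with a filter of at least 5 TPM, and 249 and 13 of 15108 with a pseudocount of 0.1 TPM. Quantile normalization gave 253 and 15, the length and GC correction 397 and 308 of 15017, and arrayWeights 496 and 64. Without mitochondrial genes, calls were 335 and 3 of 15253, and on protein-coding transcripts 53 and 4 of 13033. Without trend they were 35 and 0, and without a filter 4 and 0 of 29036. When 1 library was left out, they ran from 3 and 1 to 409 and 11. The lowest was without replicate 2 and the highest without replicate 1 of AAV-GFP. Members higher at an unadjusted p under 0.05 in limma ranged from 8 to 17. The 17 were without mitochondrially encoded genes, where 2098 of the 15253 genes tested were higher at that p. The settings with 8 had from 840 of 13033 genes (protein-coding transcripts only) to 1473 of 15108 (without AAV-Leptin-GFP replicate 1).

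With the replicate number as a block, 0 members and 0 member transcripts were called, and 74 genes were called higher and 0 lower. In that fit, 11 members were higher at an unadjusted p under 0.05 in limma (1752 of the 15108 genes tested). The correlations of deviations for same-numbered libraries were 0.03, -0.07 and -0.02, so the numbers were not taken to pair the libraries.

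Of the 34 members, 24 kept the sign of their log2 fold change in all settings and 10, all with adjusted p of 0.644 or more in the fit reported, did not. With quantile normalization, Kmt2d was at -0.020, Suv39h1 at -0.022, Kdm1a at -0.0075, Kdm3b at -0.0078, Kdm4c at -0.054 and Kdm7a at -0.045. With the length and GC correction, Kmt2d was at -0.028, Setd7 at -0.029, Kdm1a at -0.039 and Kdm3b at -0.0042. On protein-coding transcripts, Suv39h1 was at -0.027 and Kdm1a at -0.066. When 1 library was left out, Kmt2d ranged from -0.059 to 0.23, Setd7 from -0.041 to 0.064, Ezh2 from -0.34 to 0.13, Suv39h1 from -0.046 to 0.14, Kdm1a from -0.028 to 0.048, Kdm5a from -0.035 to 0.23 and Tet1 from -0.062 to 0.33. The cause was not tested.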
